A study of Mus musculus with 20 samples.

Results

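Interferon-stimulated genes and genes of the major histocompatibility complex (MHC) class I pathway were followed as a group of 38 in mouse dorsal root ganglia (DRG), where the cell bodies of sensory neurons lie. The members were named by symbol, and each matched 1 Ensembl identifier among the 78258 of the count table, once the version suffix was removed. All 38 passed the filter on low counts, out of 28564 genes tested. Ganglia of lumbar levels 4 to 6 came from 10 male mice, and the labels treat the ganglia of 1 mouse on 1 side as 1 sample. The conditional knockout mice (cKO) were Ahr fl/fl Thy1CRE-ERT2/EYFP, so that tamoxifen activates a Cre recombinase under the Thy1 promoter, used to drive transgenes in neurons, and deletes the floxed part of Ahr, which encodes the aryl hydrocarbon receptor. Control mice were described as Ahr f/f or f/+. The library names carry ff for every control mouse and ffcre for every cKO mouse, while the sample titles call the control mice wildtype. The genotype of each control mouse is thus not certain from the labels used here. Every mouse of both genotypes received tamoxifen at 100 mg/kg i.p. once daily on 5 days at 17 weeks of age, and the sciatic nerve was transected 4 weeks later. Ganglia of both sides were taken 1 day after the lesion, which gave 4 groups of 5 libraries, control contralateral, control ipsilateral, cKO contralateral and cKO ipsilateral. The reference is therefore the opposite side of lesioned mice, and ganglia of mice without a lesion were not analysed here. One label field names a spinal cord injury, and the protocol text with sciatic transection was followed.

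Interferons bind receptors at the cell surface and activate the Janus kinases Jak1, Jak2 and Tyk2, which phosphorylate Stat proteins. Type I interferon brings Stat2 and Irf9 together in the complex ISGF3, which binds the interferon-stimulated response element (ISRE), while interferon gamma acts mainly at the gamma-activated site (GAS). Their targets include antiviral effectors (Ifit, Mx and Oas families, Rsad2), nucleic acid sensors, guanylate-binding proteins, and the machinery that loads peptides onto MHC class I molecules. In a ganglion, resident macrophages, satellite glia and neurons can all express such genes.

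The ISRE core was searched as GAAANNGAA and the GAS as TTCNNNGAA, on both strands, in RefSeq promoters of build GRCm38.p6 that run from 250 bases before to 50 bases after each transcript start. Of the members, 29 had a promoter in the table, and Mx1, Mx2, Usp18, Ifi27, Rtp4, Zbp1, Tap2, Nlrc5 and Parp14 had none. The ISRE core was present in 16 of the 29 (55.2%), against 9.76% of 27025 genes, and the GAS in 8 of the 29 (27.6%), against 9.55% of genes. Among members called higher after injury in either genotype, 6 of 9 held the ISRE core, and 10 of 20 among those not called. Of the 27 ISRE core matches in member promoters, 2 overlapped a GAS match. These matches describe letters in a window and are not measured binding. The 200 bases before the start are printed for 5 members that stand for the patterns of expression described here, with ISRE core or GAS matches in capitals. Ifit1 (chr19:34640689-34640888, plus strand) was called higher after injury, Isg15 (chr4:156200819-156201018, minus strand) held the same element and was not called, Gbp2 (chr3:142620463-142620662, plus strand) varied most between mice among the members with a printed promoter, B2m (chr2:122147487-122147686, plus strand) stands for MHC class I, and Irf1 (chr11:53769814-53770013, plus strand) had a GAS match and no ISRE core.
Ifit1: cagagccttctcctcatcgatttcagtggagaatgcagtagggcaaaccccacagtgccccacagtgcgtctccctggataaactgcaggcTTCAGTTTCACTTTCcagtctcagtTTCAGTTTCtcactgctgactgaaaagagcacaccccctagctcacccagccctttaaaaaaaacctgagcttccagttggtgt
Isg15: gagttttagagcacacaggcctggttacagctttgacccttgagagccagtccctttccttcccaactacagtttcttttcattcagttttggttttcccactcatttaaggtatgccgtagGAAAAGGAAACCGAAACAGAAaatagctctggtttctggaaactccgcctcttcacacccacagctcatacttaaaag
Gbp2: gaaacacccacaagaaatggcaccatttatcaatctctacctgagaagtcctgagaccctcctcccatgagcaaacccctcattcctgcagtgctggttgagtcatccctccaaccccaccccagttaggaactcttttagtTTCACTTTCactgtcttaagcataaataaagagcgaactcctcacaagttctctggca
B2m: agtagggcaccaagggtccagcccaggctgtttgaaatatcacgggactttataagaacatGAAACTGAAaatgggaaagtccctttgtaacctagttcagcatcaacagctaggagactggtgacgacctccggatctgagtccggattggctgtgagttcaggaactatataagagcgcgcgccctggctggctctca
Irf1: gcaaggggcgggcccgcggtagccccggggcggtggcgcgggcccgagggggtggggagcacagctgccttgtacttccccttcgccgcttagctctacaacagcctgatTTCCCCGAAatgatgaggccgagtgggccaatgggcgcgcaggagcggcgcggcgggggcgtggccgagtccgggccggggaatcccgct
In Ifit1 the 3 core matches lie 84, 103 and 109 bases before the start, and in Isg15 they lie 66, 72 and 78 bases before it. The single matches of Gbp2 and B2m begin 58 and 139 bases before the start, and the GAS match of Irf1 begins 90 bases before it.

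Libraries held 76.2 to 118.5 M counts (M, mega), with 0.916% to 1.33% of them in mitochondrial genes. In cKO mice both measures were separated by side. Contralateral libraries there held 76.2 to 87.2 M counts and ipsilateral ones 87.5 to 118.5 M. The mitochondrial share was higher in every cKO contralateral library than in any cKO ipsilateral one. In control mice the sides overlapped in both measures. The part of these differences in the cKO injury comparison was not tested. Ahr, the targeted gene, read 21.3, 24.6, 23.8, 27.2 and 24.4 CPM (counts per M, TMM-normalised) in control contralateral libraries and 20.4, 20.99, 20.5, 20.4 and 19.5 CPM in cKO contralateral libraries. The groups did not overlap, with cKO lower by a log2 difference of -0.25 ± 0.0661 (SE) with an edgeR adjusted p of 0.103. On the ipsilateral side the difference was -0.11 ± 0.0655, and reads over the whole gene do not separate the floxed part from the rest. Markers of sensory neurons summed to 10570 to 12670 CPM, satellite glia to 1598 to 2041 CPM and Schwann cells to 3734 to 5278 CPM per library, so the labelled ganglion was present throughout. All 90 markers of the 11 cell types examined had counts in every library, the fewest being 2 counts, for Ccr7, Ncr1 and Xcr1. In such bulk samples, fewer cells of a type and less RNA per cell cannot be told apart.

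Levels per length are CPM divided by the merged exon length in kb and are compared between genes only on that scale. B2m, the shared light chain of MHC class I, was the most abundant member at 227 CPM per kb in control contralateral ganglia, followed by the class I heavy chain H2-D1 at 103 and the interferon-inducible membrane protein gene Ifi27 at 77.8. Ifitm3, which blocks virus entry at membranes, reached 40.1 CPM per kb, just above H2-K1, the other class I heavy chain. The ISGF3 subunits stood at 13.9 for Stat2 and 4.00 for Irf9. Mx1 was the lowest at 0.184 CPM per kb, with at least 36 counts in each control contralateral library, and Ifi44, Mx2 and Nlrc5 lay between 0.450 and 0.535. Every other member had at least 64 counts in each of those libraries. Reads of near-identical genes (H2-K1, H2-D1 and the H2-Q genes, Ifit3 and Ifit3b, Oas1a and Oas1g, and the Gbp cluster) could be divided differently by another counting method, so the levels of these members are uncertain to that extent.

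The comparison of ipsilateral with contralateral ganglia asks how the members stood 1 day after axotomy. A minority were called higher, and none was called lower. Mx2, a GTPase of the Mx family, stood highest with a 1.79-fold ipsilateral level in control and 2.07-fold in cKO mice, while Stat2, Ifi35, Oasl2, Ifit1, Ddx58 and Trim25 rose by smaller steps in both genotypes. Ifitm3, Oas1a and Xaf1 rose in control mice and missed the threshold in cKO mice, a difference between genotypes that was not called when tested. These calls depended in part on the pairing of sides by mouse. With the mouse as a replicate block, Ifitm3 (edgeR adjusted p 0.0370) and Oas1a (0.0170) were also called in cKO mice, Irf9 was called in both genotypes and Ifih1 in control mice, while Ifit1 was called in neither genotype (0.0907 and 0.0932) and Trim25 no longer in control mice (0.0646). Class I MHC genes, guanylate-binding proteins, Isg15, Ifit3, Irf1 and Irf7 were not called in either genotype.

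Calls were made at an adjusted p below 0.05 (edgeR quasi-likelihood test, Benjamini-Hochberg over all 28564 genes). In control mice 10 of 38 members were called, all higher (26.3%). Over all genes tested, 29.9% were called in that comparison, and 13.8% were called higher. In cKO mice 7 of 38 members were called, all higher (18.4%), against 31.3% of all genes called and 16.2% called higher. The share of members called was thus close to or below that of all genes, and the share called higher was above it in control and near it in cKO mice. The median log2 fold change of the members was 0.20 in control mice, with 31 of 38 positive, and 0.02 in cKO mice, with 21 of 38 positive. Over all genes tested the medians were -0.0047 and -0.0296. The medians of the members shifted when single mice were left out. The control median was 0.104 without H63 and 0.33 without H96, and stayed positive whichever mouse was left out. In cKO mice it was 0.195 without H61, 0.104 without H64 and 0.046 without H95, and it was negative without H99 (-0.028) or H100 (-0.015). All 7 members called in cKO mice were also among the 10 of control mice.

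**Figure D1:**
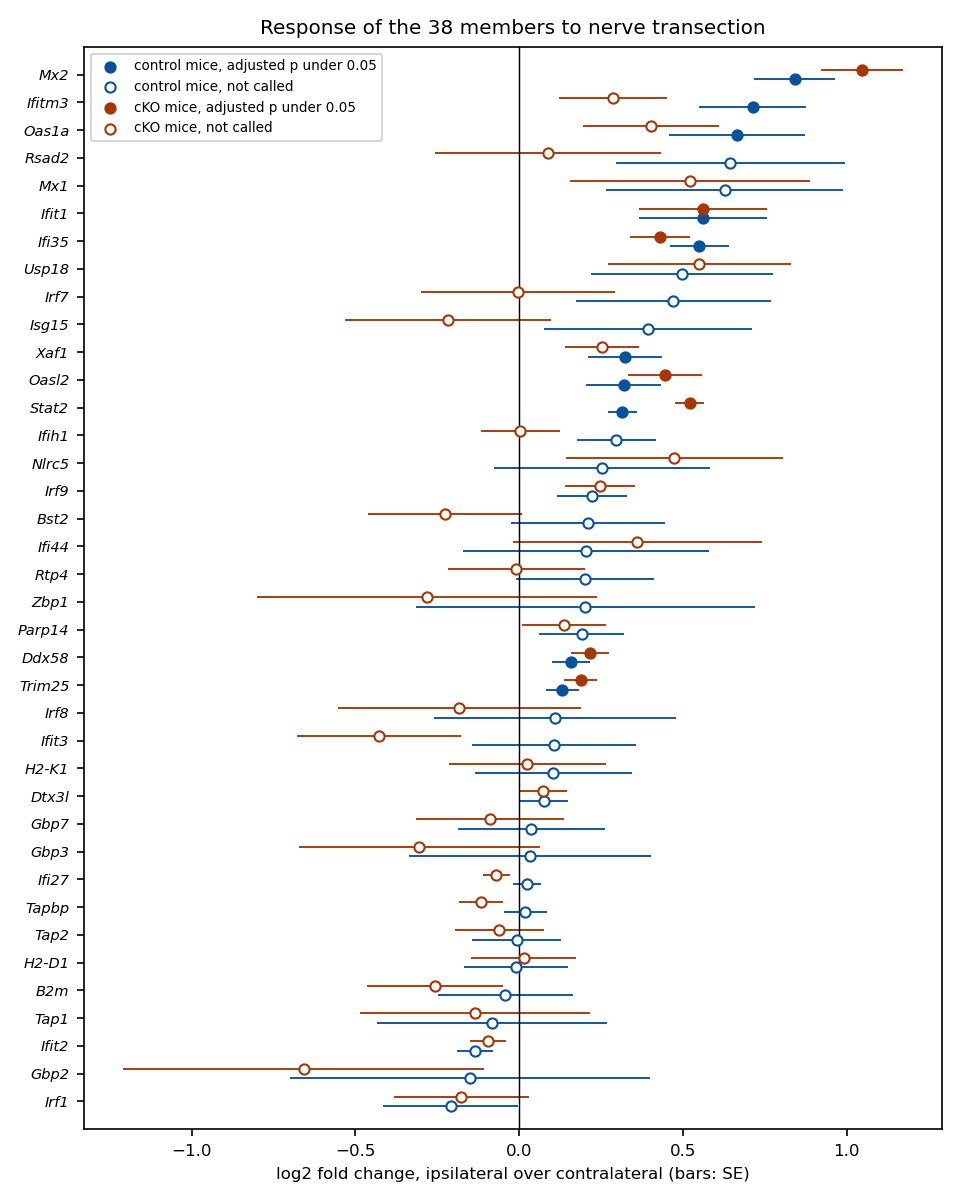
Log2 fold change of each of the 38 members, ipsilateral over contralateral, in control (blue) and cKO mice (brown), with bars of 1 SE and filled points for members with an adjusted p under 0.05. Mx2 stands at the top with 0.84 and 1.05, and all filled points lie right of 0.

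Members with separated sides were about as frequent as among all genes. Ipsilateral values lay above all contralateral values for 4 of 38 members in control mice (Mx2, Ifitm3, Stat2 and Ifi35), against 11.3% of all genes tested that were so separated upward. In cKO mice this held for 5 of 38 members (Ifit1, Oasl2, Mx2, Stat2 and Ifi35), against 11.9% of all genes. In the values per library that follow, control mice are given in the order H62, H63, H65, H96 and H97, and cKO mice in the order H61, H64, H95, H99 and H100.

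Among the transcription factors, Stat2 (ENSMUSG00000040033.18) was the most uniform responder. Control contralateral libraries held 85.1, 78.95, 79.6, 88.8 and 79.8 CPM of Stat2, and control ipsilateral libraries 101, 110.0, 101, 102 and 98.8 CPM. The cKO libraries held 77.3, 67.8, 68.6, 73.9 and 68.9 CPM contralaterally and 96.3, 103, 101, 111 and 100.3 CPM ipsilaterally. The sides did not overlap in either genotype, and the 5 cKO contralateral libraries were the lowest of the 20. Stat2 rose by 0.32 ± 0.0444 in control mice (log2 fold change ± SE from the fit to all 20 libraries, edgeR adjusted p 1.18e-05). In cKO mice it rose by 0.52 ± 0.0445 (edgeR adjusted p 1.08e-08). Leaving out any mouse kept both calls.

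Irf9 (ENSMUSG00000002325.16), the DNA-binding partner of Stat2 in ISGF3, missed the threshold in both genotypes. Its values were 22.3, 20.5, 17.3, 27.4 and 20.1 CPM contralaterally and 25.3, 25.8, 22.2, 26.9 and 25.4 CPM ipsilaterally in control mice, where the contralateral library of H62 lay within the ipsilateral range and that of H96 above it. In cKO mice Irf9 read 22.5, 25.1, 20.2, 16.5 and 21.04 CPM and 23.5, 27.6, 22.6, 25.8 and 25.6 CPM. It was higher ipsilaterally in 4 of 5 control and 5 of 5 cKO mice, with log2 fold changes of 0.22 ± 0.11 and 0.25 ± 0.11 and edgeR adjusted p of 0.137 and 0.0916. With the mouse as a replicate block it was called in both genotypes, at edgeR adjusted p of 0.0351 and 0.0234, and likewise without mouse H96, at 0.0357 and 0.0464.

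Irf1 (ENSMUSG00000018899.18), a factor induced by interferon gamma, was not called. Control mice had 19.5, 13.4, 14.9, 28.8 and 12.1 CPM of Irf1 contralaterally and 16.2, 15.3, 12.6, 18.7 and 13.97 CPM ipsilaterally, and cKO mice 22.2, 20.1, 15.3, 12.4 and 14.9 CPM and 15.4, 15.04, 13.2, 14.4 and 17.2 CPM. The high contralateral libraries were H96, H62, H61 and H64, the sides overlapped, and the log2 fold changes were -0.21 ± 0.21 and -0.18 ± 0.21. Irf7 (ENSMUSG00000025498.16), the factor that amplifies type I interferon production, read 8.67, 6.08, 5.11, 13.9 and 4.95 CPM contralaterally and 9.03, 11.8, 9.21, 13.6 and 10.3 CPM ipsilaterally in control mice. In cKO mice it read 8.47, 14.2, 8.30, 4.35 and 10.99 CPM and 7.22, 11.9, 8.01, 9.58 and 9.38 CPM. The control ipsilateral libraries of Irf7 were within 9.03 to 13.6 CPM while the contralateral ones spread from 4.95 to 13.9 CPM, and the log2 fold change of 0.47 ± 0.30 was not called (edgeR adjusted p 0.268). In cKO mice it was -0.00 ± 0.30. Irf8, a factor of myeloid cells, averaged 4.37 ± 2.45 CPM and 4.74 ± 1.47 CPM (SD, n = 5) on the contralateral and ipsilateral sides of control mice and was not called.

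Among the antiviral effectors, Mx2 (ENSMUSG00000023341.17) was low and clearly separated. Control libraries held 1.55, 2.04, 1.54, 2.34 and 1.97 CPM of Mx2 contralaterally and 2.88, 4.09, 3.15, 3.42 and 3.40 CPM ipsilaterally. In the cKO libraries the values were 1.99, 1.77, 1.48, 1.34 and 1.86 CPM and 3.77, 3.65, 3.31, 3.55 and 3.17 CPM. No ipsilateral library was as low as any contralateral one of its genotype. The log2 fold changes of Mx2 were 0.84 ± 0.12 and 1.05 ± 0.12, with edgeR adjusted p of 2.01e-05 and 1.28e-06, and both calls held without any single mouse. Its paralog Mx1, at 0.699 ± 0.394 CPM contralaterally and 1.10 ± 0.566 CPM ipsilaterally in control mice, had a log2 fold change of 0.63 ± 0.36 and was not called (edgeR adjusted p 0.219, and 0.0451 without mouse H96). In cKO mice Mx1 averaged 0.650 ± 0.320 and 0.938 ± 0.147 CPM.

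Ifi35 (ENSMUSG00000010358.14), an interferon-induced leucine zipper protein, rose to nearly the same level in every mouse. Control mice had 13.7, 14.5, 14.9, 18 and 15.2 CPM of Ifi35 contralaterally and 21.4, 23.7, 21.5, 22.6 and 22.8 CPM ipsilaterally. The cKO mice had 16.4, 17.2, 17.1, 11.4 and 18.3 CPM and 22.5, 20.8, 21.4, 22.2 and 21.3 CPM. The 10 ipsilateral libraries lay between 20.8 and 23.7 CPM, above all 10 contralateral ones, of which H99 was the lowest. Ifi35 rose by 0.55 ± 0.0910 in control mice (edgeR adjusted p 8.29e-05) and by 0.43 ± 0.0909 in cKO mice (edgeR adjusted p 0.000981).

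Ifitm3 (ENSMUSG00000025492.7) was called in control mice. There it read 32.4, 23.7, 21.7, 34.3 and 24.1 CPM contralaterally and 47.4, 43.1, 36.3, 49.6 and 46.9 CPM ipsilaterally, with no overlap. In cKO mice Ifitm3 read 32.4, 43, 36.3, 20.5 and 34.7 CPM and 38.9, 44.5, 38.2, 36.2 and 45.8 CPM, where the contralateral libraries of H64 and H95 overlapped the ipsilateral range. The log2 fold changes were 0.71 ± 0.16 (edgeR adjusted p 0.00272) and 0.29 ± 0.16 (edgeR adjusted p 0.204). All 5 mice of each genotype were higher ipsilaterally, and with the mouse as a replicate block Ifitm3 was called in cKO mice too, at an edgeR adjusted p of 0.0370. Its response did not pass a test of difference between the genotypes, as given with the interaction.

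Both members of the oligoadenylate synthetase family, whose enzymes are activated by double-stranded RNA, were called in control mice. Oasl2 (ENSMUSG00000029561.18) read 59.6, 59.7, 56.3, 87.6 and 55.7 CPM contralaterally and 73.8, 82.8, 75.4, 89.8 and 76.2 CPM ipsilaterally in control mice. The cKO libraries of Oasl2 held 54.2, 66.8, 53.5, 47.8 and 61.1 CPM and 70.3, 79.8, 71.7, 80.2 and 83.7 CPM. Only the contralateral library of H96 reached the ipsilateral range in control mice, and none did in cKO mice. Oasl2 rose by 0.32 ± 0.11 (edgeR adjusted p 0.0411) and 0.45 ± 0.11 (edgeR adjusted p 0.00547). The control call was near the threshold and was lost without H61, H62, H63, H65, H97 or H100, at edgeR adjusted p of 0.0517 to 0.133. Oas1a (ENSMUSG00000052776.11) had 2.72, 2.36, 1.52, 3.63 and 2.62 CPM and 3.86, 3.94, 3.49, 4.82 and 4.29 CPM on the contralateral and ipsilateral sides of control mice. In cKO mice Oas1a had 2.21, 3.55, 2.25, 1.83 and 3.94 CPM and 3.46, 4.49, 3.26, 3.29 and 3.69 CPM. Of the control contralateral libraries, only that of H96 (3.63 CPM) lay within the ipsilateral range of 3.49 to 4.82 CPM, and that of H65 was the lowest at 1.52 CPM. Oas1a rose by 0.66 ± 0.21 in control mice (edgeR adjusted p 0.0202), a call lost without H63 (0.0640) or H97 (0.0635). In cKO mice the value was 0.40 ± 0.21 (edgeR adjusted p 0.155, and 0.0170 with the replicate block).

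Ifit1 (ENSMUSG00000034459.9), which binds RNA lacking self cap marks, was called in both genotypes with a wide spread. Control libraries held 39.8, 27.5, 26.2, 48.8 and 28.3 CPM of Ifit1 contralaterally and 40.2, 65.02, 47.7, 53.2 and 46.1 CPM ipsilaterally. In the cKO libraries these were 32.9, 37.1, 27.9, 20.3 and 37.2 CPM and 38.6, 45.7, 43.4, 57.7 and 44 CPM. The control sides overlapped through the contralateral library of H96, and the cKO sides did not. Its log2 fold changes were 0.56 ± 0.20 (edgeR adjusted p 0.0373) and 0.56 ± 0.20 (edgeR adjusted p 0.0367). Under the replicate block neither was called, at edgeR adjusted p of 0.0907 and 0.0932. The control call was also lost without H63, H65, H95 or H97 (edgeR adjusted p 0.0503 to 0.201), and the cKO call without H64, H95 or H99 (0.0550 to 0.182).

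The other Ifit genes were not called. Ifit3 (ENSMUSG00000074896.4), a partner of Ifit1, read 28.2, 20.9, 19.02, 26.5 and 16.6 CPM contralaterally and 23.3, 32.9, 17.8, 25.4 and 20.7 CPM ipsilaterally in control mice. In cKO mice Ifit3 read 35.9, 24.96, 23.3, 12.8 and 40.03 CPM and 17.3, 21.6, 22.6, 16.3 and 24.03 CPM. Its cKO contralateral libraries ran from 12.8 CPM in H99 to 40.0 CPM in H100, and 4 of 5 cKO mice were lower ipsilaterally. Neither log2 fold change, 0.11 ± 0.25 or -0.43 ± 0.25, was called. Ifit2 averaged 52.2 ± 2.15 CPM contralaterally and 47.6 ± 4.51 CPM ipsilaterally in control mice, and its log2 fold change of -0.13 ± 0.0552 was called lower only without mouse H63 (edgeR adjusted p 0.00946 against 0.0728).

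Isg15 (ENSMUSG00000035692.8), the ubiquitin-like modifier, held 5.45, 3.23, 2.69, 5.57 and 2.64 CPM contralaterally and 4.62, 6.25, 3.67, 6.45 and 4.81 CPM ipsilaterally in control mice. The cKO libraries of Isg15 held 6.37, 8.44, 4.08, 2.10 and 7.37 CPM and 4.02, 5.94, 5.28, 3.54 and 5.62 CPM. The contralateral cKO libraries spanned 2.10 to 8.44 CPM and enclosed all ipsilateral values. The log2 fold changes were 0.39 ± 0.32 in control and -0.22 ± 0.31 in cKO mice, and neither was called (edgeR adjusted p 0.403 and 0.660). Usp18, which removes Isg15 from proteins and restrains the receptor, was higher ipsilaterally in 5 of 5 mice of each genotype, with log2 fold changes of 0.50 ± 0.28 and 0.55 ± 0.28, and missed the threshold (edgeR adjusted p 0.206 and 0.151). Rsad2, or viperin, averaged 13.6 ± 6.93 and 21.3 ± 7.33 CPM in control mice and was not called (edgeR adjusted p 0.189, and 0.0451 without mouse H62).

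**Figure D2:**
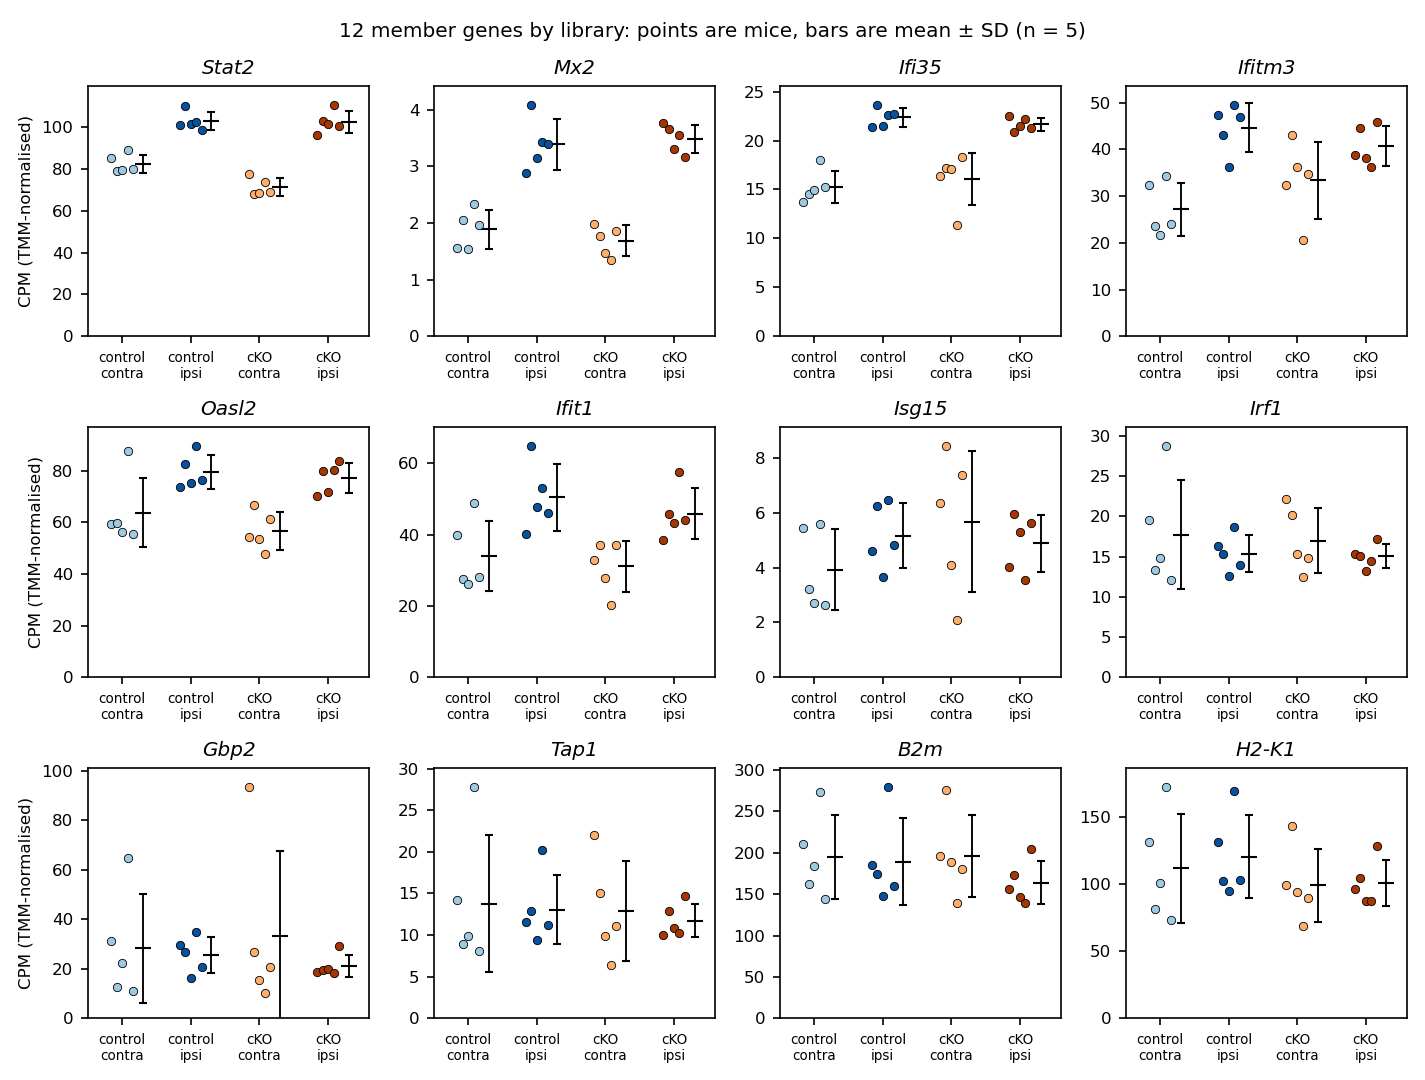
TMM-normalised CPM of 12 members in the 4 groups, 1 point per mouse in the order of the text, with mean and SD (n = 5) beside the points and a linear axis from 0. Stat2, Mx2 and Ifi35 are separated by side in both genotypes, while Isg15, Irf1, Gbp2, Tap1, B2m and H2-K1 overlap by side and, apart from B2m in control mice, spread more contralaterally.

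Xaf1 (ENSMUSG00000040483.16), a pro-apoptotic interferon target, read 10.2, 8.93, 8.27, 13.2 and 9.44 CPM contralaterally and 10.7, 13.2, 12.01, 14.1 and 12.7 CPM ipsilaterally in control mice. In cKO mice Xaf1 read 11.3, 11.6, 9.06, 8.01 and 10.3 CPM and 11.6, 12.6, 11.8, 12.6 and 11.2 CPM. Every mouse was higher ipsilaterally, and the groups overlapped in both genotypes. The log2 fold change was 0.32 ± 0.11 in control (edgeR adjusted p 0.0353) and 0.25 ± 0.11 in cKO mice (edgeR adjusted p 0.0964). The control call was lost without H63, H65 or H97 (0.103 to 0.139), and without H96 the cKO value was called (0.0325). Among effectors not called, Bst2 (tetherin, which holds budding virions at the membrane) had log2 fold changes of 0.21 and -0.23, Rtp4 0.20 and -0.01, Ifi44 0.20 and 0.36, and Ifi27 0.02 and -0.07. Ifi27 was also the least variable member, between 103 and 131 CPM in all 20 libraries.

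Among the cytosolic RNA sensing genes, Ddx58 and Trim25 rose by small steps. Ddx58 (ENSMUSG00000040296.16), the gene of RIG-I, held 32.7, 35.04, 32.96, 39.1 and 33.9 CPM contralaterally and 37.9, 42.2, 35.7, 40.4 and 37.8 CPM ipsilaterally in control mice. The cKO libraries of Ddx58 held 32.7, 34.4, 32, 29.98 and 34.7 CPM and 34.7, 39.04, 35.9, 39.9 and 40.8 CPM. Ddx58 rose by 0.16 ± 0.0578 (edgeR adjusted p 0.0431) and 0.22 ± 0.0578 (edgeR adjusted p 0.00655), with overlapping groups and all 10 mice higher ipsilaterally. Without H62, H63 or H97 the control call was lost (edgeR adjusted p 0.0720 to 0.124). Trim25 (ENSMUSG00000000275.17), the ubiquitin ligase that activates RIG-I, had 47, 44.2, 44.05, 47.7 and 48.7 CPM contralaterally and 52.9, 53.97, 47.8, 47.8 and 51.4 CPM ipsilaterally in control mice. In cKO mice Trim25 had 43.9, 45.3, 39.6, 43.96 and 43.8 CPM and 44.6, 52.9, 52.3, 47.3 and 49.7 CPM. These differences were 0.13 ± 0.0495 (edgeR adjusted p 0.0492) and 0.19 ± 0.0496 (edgeR adjusted p 0.00583). The control call of Trim25 was lost under the replicate block (0.0646) and without H62, H63, H65 or H100 (0.0592 to 0.183), and the cKO call without H95 (0.0564).

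Ifih1 (MDA5), the sensor of long double-stranded RNA, averaged 11.3 ± 1.73 CPM contralaterally and 13.9 ± 1.89 CPM ipsilaterally in control mice and was higher ipsilaterally in 5 of 5 of them. Its log2 fold change of 0.30 ± 0.12 was not called (edgeR adjusted p 0.0732). It was called with the replicate block (edgeR adjusted p 0.0103) and by DESeq2 (adjusted p 0.03875). In cKO mice the value was 0.00 ± 0.12. Zbp1, the sensor of Z-form nucleic acids, averaged 2.34 ± 2.06 CPM and 2.72 ± 0.853 CPM in control mice and was not called. The ADP-ribosyl transferase gene Parp14 and its neighbour in antiviral signalling Dtx3l, a ubiquitin ligase, had log2 fold changes of 0.19 and 0.08 in control mice and 0.14 and 0.07 in cKO mice, and neither was called.

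None of the 7 MHC class I and peptide loading members was called after injury in either genotype by edgeR or DESeq2, and 0 of 7 passed an unadjusted p under 0.05 with edgeR. B2m (ENSMUSG00000060802.9) held 210.3, 162, 184, 274 and 144 CPM contralaterally and 185, 174, 148, 280.1 and 159.9 CPM ipsilaterally in control mice. The cKO libraries of B2m held 196, 276, 189, 139 and 181 CPM and 156, 173, 147, 139.5 and 205 CPM. Mouse H96 was the highest control mouse on both sides, and the sides overlapped throughout, with log2 fold changes of -0.04 ± 0.21 and -0.26 ± 0.21. H2-K1 (ENSMUSG00000061232.17) had 131, 81.04, 100.5, 172 and 73.3 CPM contralaterally and 131, 102, 94.9, 169 and 103 CPM ipsilaterally in control mice. In cKO mice H2-K1 had 98.9, 143, 93.9, 68.9 and 89.6 CPM and 95.8, 105, 87.5, 86.9 and 128 CPM. Here too H96 was the highest control mouse on both sides, and the log2 fold changes were 0.10 ± 0.24 and 0.03 ± 0.24. H2-D1 (ENSMUSG00000073411.13) read 292, 218, 257, 354 and 206 CPM contralaterally and 272, 232, 232, 354 and 229 CPM ipsilaterally in control mice. For cKO mice the H2-D1 values were 223, 298, 228, 193 and 224 CPM and 221, 238, 215, 212 and 291 CPM. Its log2 fold changes, -0.01 ± 0.16 and 0.01 ± 0.16, were the nearest to 0 of these 3 genes.

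Tap1 (ENSMUSG00000037321.18), a subunit of the peptide transporter, had 14.2, 8.93, 9.89, 27.8 and 8.03 CPM contralaterally and 11.6, 12.9, 9.38, 20.2 and 11.2 CPM ipsilaterally in control mice. In cKO mice Tap1 had 22.02, 15, 9.85, 6.36 and 11.1 CPM and 9.97, 12.9, 10.9, 10.2 and 14.7 CPM. Contralateral libraries of H96 and H61 stood above all others of their groups, and the log2 fold changes were -0.08 ± 0.35 and -0.13 ± 0.35. Nlrc5 (ENSMUSG00000074151.15), the transactivator of class I genes, read 4.98, 2.83, 2.99, 9.03 and 2.90 CPM contralaterally and 5.71, 6.16, 4.24, 5.86 and 5.23 CPM ipsilaterally in control mice. The cKO libraries of Nlrc5 held 7.18, 4.35, 2.76, 2.52 and 2.48 CPM and 4.63, 6.89, 4.75, 5.05 and 5.48 CPM. In each genotype 4 of 5 mice were higher ipsilaterally, the exceptions being H96 and H61. Its log2 fold changes of 0.25 ± 0.33 and 0.47 ± 0.33 were not called (edgeR adjusted p 0.634 and 0.310). With both of those mice left out, a choice made after seeing the data, they were (0.0413 and 0.00683). Tap2, the other transporter subunit, and Tapbp, the tapasin gene, had log2 fold changes of -0.01 ± 0.14 and 0.02 ± 0.0666 in control mice and -0.06 ± 0.14 and -0.12 ± 0.0666 in cKO mice.

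Guanylate-binding proteins, GTPases that act on intracellular pathogens, were not called. Gbp2, described after its values were seen, held 31.1, 12.5, 22.2, 64.8 and 10.9 CPM contralaterally and 29.6, 26.6, 16.2, 34.9 and 20.6 CPM ipsilaterally in control mice. In cKO mice Gbp2 held 93.6, 26.8, 15.5, 10.2 and 20.8 CPM and 18.9, 19.4, 20.03, 18.5 and 29.1 CPM. Mouse H61 had the highest value of the 20 libraries contralaterally, 93.6 CPM, and 18.9 CPM ipsilaterally. The log2 fold changes of Gbp2 were -0.15 ± 0.55 and -0.66 ± 0.55, those of Gbp3 0.03 ± 0.37 and -0.30 ± 0.37, and those of Gbp7 0.04 ± 0.22 and -0.09 ± 0.23. None was called.

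The spread between mice was a feature of most members. Within groups, the SD of log2 CPM had a median of 0.329 over the members, against 0.097 over the 19365 tested genes that averaged 1 CPM or more. It exceeded that 0.097 in 33 of 38 members, and ranged from 0.069 for Ifi27 and 0.073 for Stat2 to 0.838 for Gbp2 and 0.874 for Zbp1. The members called in both genotypes included some with little spread, Stat2, Trim25 (0.082) and Ddx58 (0.096), while Isg15 (0.538), Tap1 (0.549), Gbp3 (0.571), Irf8 (0.604) and Gbp2 had a larger spread.

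**Figure D3:**
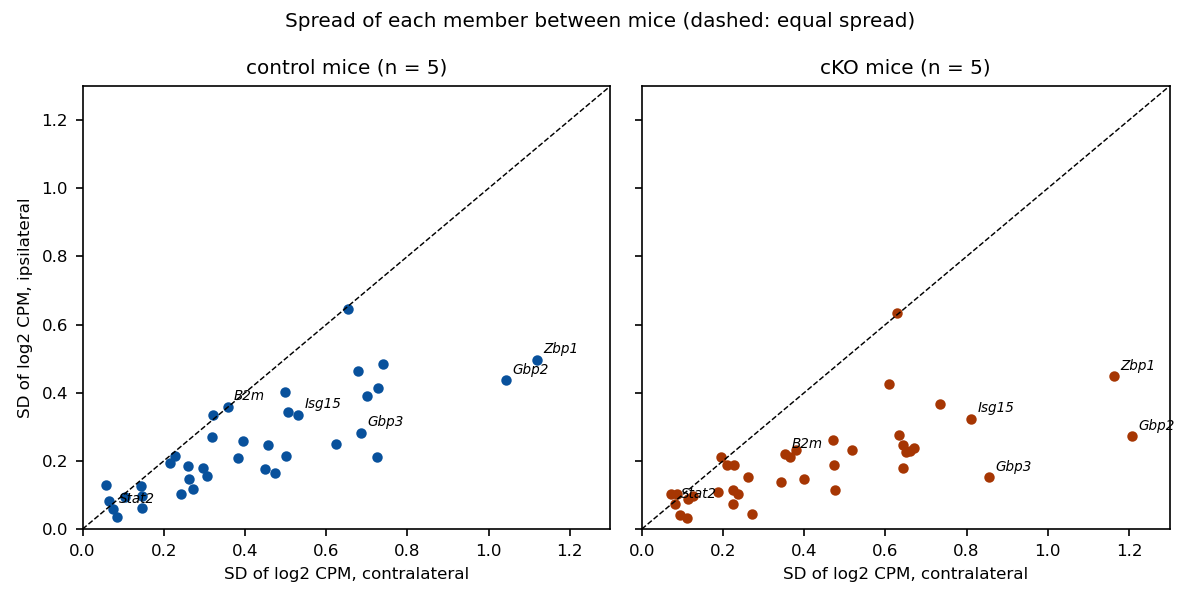
SD of log2 CPM over the 5 mice of a genotype for each of the 38 members, contralateral on the horizontal and ipsilateral on the vertical axis, with the line of equal spread dashed. In each genotype 34 of 38 members lie below the line, and Gbp2 and Zbp1 lie farthest right.

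For most members, contralateral ganglia differed more between mice than ipsilateral ones. In each genotype 34 of 38 members had the larger SD contralaterally, while 52.8% of tested genes with at least 1 CPM did so in control and 72.7% in cKO mice. The median SD of the members was 0.37 contralaterally and 0.213 ipsilaterally in control mice, and 0.372 and 0.188 in cKO mice. Members share their libraries, so these counts are not independent of each other, and they are given without a test.

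The members tended to be high or low in the same libraries. Among control contralateral libraries, H96 was the highest for 35 of 38 members, although it was the highest for 20.8% of all tested genes. H97 was the lowest for 18 members, against 19.8% of all genes. Among cKO contralateral libraries, H99 was the lowest for 33 of 38 members, against 25.0% of all genes. The highest libraries there differed by gene, H64 for 17 members (21.3% of all genes) that included Isg15, Irf7, Irf8, B2m, H2-K1 and H2-D1, H61 for 14 (17.3% of all genes) that included Irf1, Nlrc5, Tap1, Tap2, Zbp1 and all 3 Gbp genes, and H100 for 7 that included Ifit1 and Ifit3, a count near its share of 16.2% over all genes. Ipsilaterally in control mice, H96 was the highest for 22 and H63 for 14 members, against 22.2% and 17.5% of all genes, and H65 was the lowest for 23, against 24.7%. In cKO mice H100 was the highest for 24 members, against 23.8% of all genes.

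**Figure D4:**
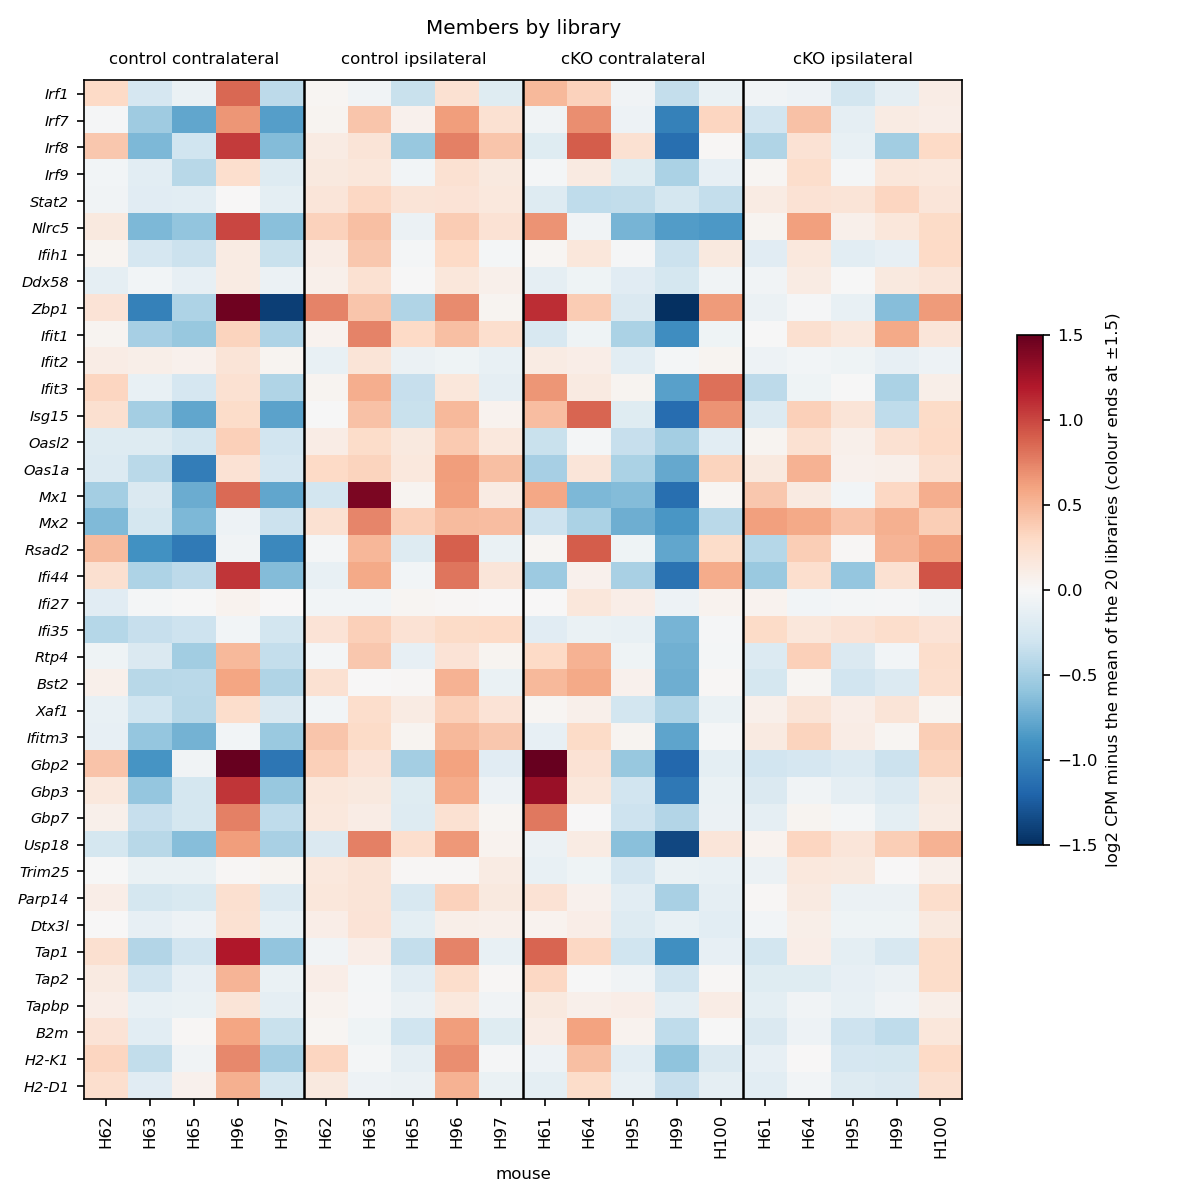
Log2 CPM of each member in each of the 20 libraries, minus the mean of the member over all libraries, with red above and blue below the mean and colour limits at ±1.5. Columns are mice within the 4 groups. H96 contralateral is mostly red and H99 contralateral mostly blue.

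Seen per mouse, the median log2 difference of the 38 members between sides was 0.06 in H62, 0.591 in H63, 0.206 in H65, -0.026 in H96 and 0.441 in H97. In the cKO mice it was -0.198 in H61, -0.068 in H64, 0.118 in H95, 0.649 in H99 and 0.251 in H100. The number of members higher ipsilaterally ranged from 13 in H61 to 37 of 38 in H63 and H99. Summed CPM of the members were 1517, 1216, 1300.0, 1896 and 1171 contralaterally and 1528, 1534, 1346, 1862 and 1414 ipsilaterally in the control mice. In the cKO mice the sums were 1524, 1658, 1305, 1074 and 1365 contralaterally and 1328, 1461, 1331, 1357 and 1609 ipsilaterally. Mice with low contralateral sums (H63, H97 and H99) had the larger differences, but both quantities contain the contralateral value, so this is a description only. Without H61 and H96, an alternative added after seeing the data, 12 members were called in control and 9 in cKO mice, all higher, with medians of 0.327 and 0.20. In that fit 23.6% and 27.3% of all genes were called, and 12% and 15% were called higher.

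**Figure D5:**
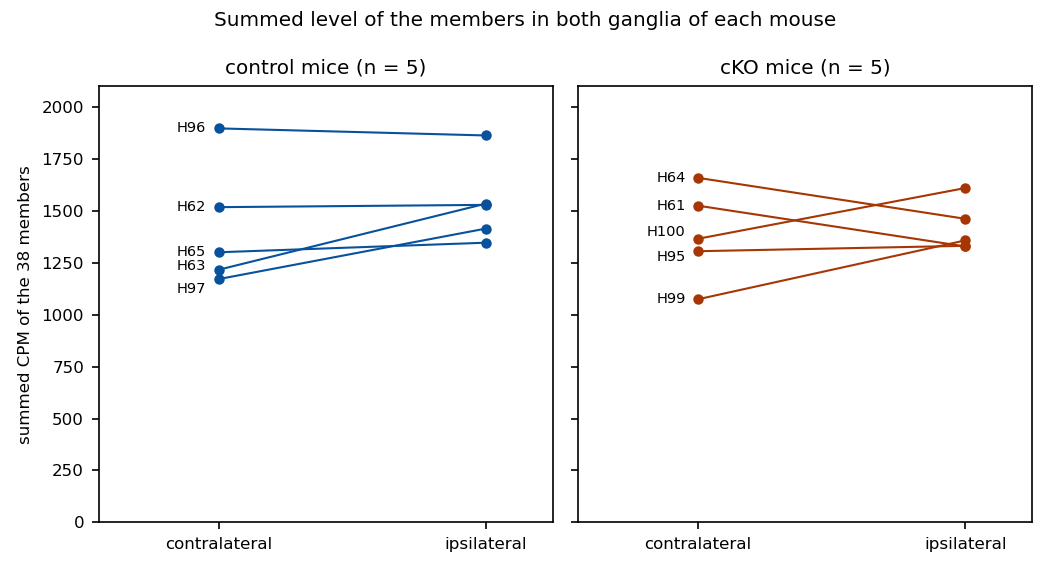
Summed TMM-normalised CPM of the 38 members in the contralateral and ipsilateral ganglia of each mouse, joined by a line per mouse, on a linear axis from 0. Contralateral sums run from 1074 in H99 to 1896 in H96, and the lines of H63, H97, H99 and H100 rise most.

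Sums of immune cell markers, and of some other markers, were high or low in several of the same libraries, with exceptions given here. The 14 macrophage markers summed to 135 to 255 CPM in control contralateral, 155 to 294 in control ipsilateral, 132 to 368 in cKO contralateral and 194 to 315 CPM in cKO ipsilateral libraries. H96 and H64, the high contralateral libraries, had the highest macrophage sums of their groups (255 and 368 CPM) and the highest MHC class II sums (543 and 516 CPM, 7 genes). H97 and H99, the low ones, had the lowest, 135 and 132 CPM for macrophages and 195 and 178 CPM for MHC class II. H61, with the highest Gbp2, had a macrophage sum of 183 CPM, below H64, H95 and H100. The 10 markers of T, NK and B lymphocytes summed to 15 CPM in H96 contralateral and to 3.14 to 10.4 CPM in the other contralateral libraries. In control contralateral libraries the monocyte sum (4 genes) and the neutrophil sum (7 genes) were highest in H62, at 31.5 and 104 CPM, against 22.6 and 41.1 CPM in H96, and the monocyte sum was lowest in H97 at 10.3 CPM. In control ipsilateral libraries both were highest in H96, at 40.2 and 141 CPM, and the monocyte sum was lowest in H65 at 13.6 CPM. The neutrophil sum of control mice was lowest in H65 contralaterally and in H62 ipsilaterally. In cKO ipsilateral libraries both were highest in H64, at 35.9 and 133 CPM, against 21.8 and 56.1 CPM in H100. In cKO contralateral libraries both were highest in H64 (46.9 and 155 CPM) and lowest in H99 (7.38 and 19.0 CPM). Neutrophil markers ranged from 33.2 to 104 CPM in control contralateral, 32.0 to 141 in control ipsilateral, 19.0 to 155 in cKO contralateral and 47.3 to 133 CPM in cKO ipsilateral libraries. Among cKO contralateral libraries, fibroblast and erythroid sums were also highest in H64 (2236 and 833 CPM) and lowest in H99 (935 and 272 CPM). The endothelial sum there was highest in H64 (165 CPM) and lowest in H100 (112 CPM). Among control contralateral libraries, fibroblast, erythroid and endothelial sums were highest in H62 (1356, 711 and 137 CPM) and not in H96.

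After injury, 14 of 14 macrophage markers had a positive log2 fold change in control mice with 1 called, and 8 of 14 in cKO mice with none called. Positive values in control and cKO mice were found for 7 and 2 of 7 neutrophil, 4 and 0 of 4 monocyte and 6 and 1 of 6 fibroblast markers, none called, with medians of 0.59, 0.459 and 0.316 in control and -0.103, -0.106 and -0.483 in cKO mice. For endothelium 3 of 7 markers were called higher in control mice and none in cKO mice, and for satellite glia 2 of 6 in each. Sensory neuron markers were called lower for 6 of 16 in control and 3 of 16 in cKO mice. Over all genes 29.9% and 31.3% were called in these comparisons. The part that these cell types have in the values of the members was not tested.

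Between genotypes no member was called on either side. On the contralateral side 0 of 38 were called, against 0.0735% of all genes. The median log2 difference of cKO minus control was -0.03 (-0.01 over all genes), with 18 of 38 positive. Leaving out 1 mouse moved it between -0.105 (H61) and 0.17 (H96), and it was positive without H62, H95, H96 or H99. One member passed an unadjusted p under 0.05, Stat2, with a log2 difference of -0.21 ± 0.0445 (edgeR adjusted p 0.0631). Its 5 cKO contralateral libraries, 67.8 to 77.3 CPM, lay below the 5 control ones, 79.0 to 88.8 CPM, and it was the only member separated in this way, against 1.52% of all genes separated in either direction. Stat2 was called lower by DESeq2 (adjusted p 0.00329), without the filter on low counts (edgeR 0.0422), without H61 (0.0295) and without H99 (0.00578). The number of all genes called in this comparison, 21 by edgeR, depended on the fit. DESeq2 called 1030, and edgeR called 50 without the filter, 174 without H61, 3326 without H99 and 4 to 22 without any other single mouse. In the fit without H99, Stat2 was thus 1 of 38 members called beside 3326 genes.

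The contralateral medians depended on which mice were compared. Mouse numbers fall into H61 to H65 and H95 to H100, ranges that the labels do not describe as batches. Within the lower range (2 cKO and 3 control mice) the median of the members was 0.357, and within the upper range (3 cKO and 2 control mice) it was -0.322, with no member called in either. For the response to injury the medians were 0.323 and 0.102 in control mice and -0.126 and 0.27 in cKO mice. Fibroblast markers summed to 935 to 2236 CPM in cKO and 802 to 1356 CPM in control contralateral libraries, and 6 of 6 had a positive log2 difference, 5 with an unadjusted p under 0.05 and none called. The log2 differences were also positive for 14 of 14 macrophage, 4 of 4 monocyte, 7 of 7 neutrophil and 7 of 7 endothelial markers. For erythroid cells 5 of 5, for satellite glia 3 of 6 and for Schwann cells 4 of 8 were positive. Among lymphocyte, dendritic cell and sensory neuron markers, 1 of 10, 2 of 7 and 2 of 16 were positive. None of these was called. The part of these in the comparison of genotypes was not tested.

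On the ipsilateral side 0 of 38 members were called and 0 passed an unadjusted p under 0.05, against 0.007% of all genes called. DESeq2 also called 0 members. The median log2 difference was -0.09 (0.0002 over all genes), and 1 of 38 members, Mx2 at 0.04 ± 0.12, was positive. The median was -0.15 without H65, -0.135 without H100, -0.051 without H63 and -0.037 without H96. Several marker lists lay to the same side, with 0 of 6 satellite glia and 0 of 7 endothelial markers positive. Of the satellite glia markers, 3 had an unadjusted p under 0.05. Positive values were found for 1 of 8 Schwann cell, 2 of 14 macrophage and 1 of 4 monocyte markers. For lymphocytes it was 1 of 10 and for dendritic cells 1 of 7. Of the other lists, 6 of 7 neutrophil, 3 of 6 fibroblast, 2 of 5 erythroid and 6 of 16 sensory neuron markers were positive. None of these was called. The part of these in the values of the members was not tested. No member was separated between genotypes, against 0.599% of all genes. For example, B2m differed by -0.21 ± 0.21, H2-K1 by -0.26 ± 0.24, H2-D1 by -0.16 ± 0.16, Ifit3 by -0.24 ± 0.25 and Stat2 by -0.00 ± 0.0443. Stat2 thus stood at 103 ± 4.29 CPM in control and 102 ± 5.29 CPM in cKO ipsilateral libraries (SD, n = 5).

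The interaction of genotype and injury asks whether the response differed between genotypes. No member was called, and over all genes edgeR called 0.0% (0 genes, and 2799 with an unadjusted p under 0.05) and DESeq2 11 genes, none of them a member. Without H99 edgeR called 43 genes, again with no member among them, and without any other single mouse it called 0. One member passed an unadjusted p under 0.05, Stat2, whose log2 fold change in cKO minus that in control mice was 0.21 ± 0.0628 (edgeR adjusted p 0.485). For the members called in control and not in cKO mice the difference in response was -0.43 ± 0.23 for Ifitm3, -0.26 ± 0.29 for Oas1a and -0.07 ± 0.16 for Xaf1, with edgeR adjusted p of 0.550, 0.784 and 0.908. For Isg15 and Ifit3 it was -0.61 ± 0.45 and -0.54 ± 0.35 (edgeR adjusted p 0.652 and 0.615). The median over the members was -0.09, with 12 of 38 positive. It was 0.04 without H61, -0.033 without H63, -0.045 without H64, -0.057 without H97, -0.161 without H96 and -0.182 without H99, and it was -0.408 with only mice H61 to H65 and 0.166 with only mice H95 to H100. In the same contrast 0 of 14 macrophage, 0 of 4 monocyte, 0 of 7 neutrophil and 0 of 6 fibroblast markers were positive. For endothelium it was 0 of 7, for erythroid cells 0 of 5, for satellite glia 1 of 6 and for Schwann cells 1 of 8. By contrast, 10 of 16 sensory neuron, 5 of 10 lymphocyte and 4 of 7 dendritic cell markers were positive. None of these markers was called, and their part was not tested. The 2 injury comparisons use different mice, but each genotype comparison and the interaction share libraries with them, so their values are set side by side and not counted as separate support.

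The rest of the pathway was read from lists of 114 genes, of which 103 were tested. In each injury comparison 18 of the 103 were called higher (17.5%) and 5 lower (22.3% called in all). Over all genes 13.8% were called higher and 29.9% called in control mice, and 16.2% and 31.3% in cKO mice, so the shares of these 103 genes were near or below the background, and the shorter lists that follow are read against it too. None was called between genotypes or for the interaction. The 11 interferon ligand genes all failed the filter and had 0 to 15 counts summed per library. Ifng, the gene of interferon gamma, had 15 counts in H96 contralateral and 0 to 6 counts in each of the other libraries, of which H61 contralateral had 3. Ifnb1 had 2 counts in H97 ipsilateral and 0 elsewhere.

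Of 6 receptor genes, 2 were called higher in control mice and 3 higher and 1 lower in cKO mice. Ifnar2, a chain of the type I receptor, rose by 0.22 ± 0.0506 and 0.15 ± 0.0506 in control and cKO mice. Its partner Ifnar1 was at 0.08 ± 0.0373 in control mice, not called, and rose by 0.20 ± 0.0374 in cKO mice. Ifngr1, the ligand-binding chain for interferon gamma, was at -0.06 ± 0.0568 in control mice, not called, and fell in cKO mice with a log2 fold change of -0.16 ± 0.0568. Ifngr2 was not called in either (-0.03 and -0.08).

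Of 12 signal transduction genes, 4 were called higher and 2 lower in control mice, and 4 higher and 1 lower in cKO mice. Socs3, a feedback inhibitor of Jak signalling downstream of gp130 cytokines, averaged 9.94 ± 2.78 CPM contralaterally and 31.4 ± 4.14 CPM ipsilaterally in control mice, and 8.62 ± 1.88 and 31.1 ± 2.29 CPM in cKO mice (SD, n = 5), a rise of 1.66 ± 0.17 and 1.85 ± 0.17 on the log2 scale. Socs1, the inhibitor tied more closely to interferon receptors, was at 0.57 ± 0.21 and 0.56 ± 0.22 and missed the threshold (edgeR adjusted p 0.0511 and 0.0538, and 0.0230 and 0.0182 with the replicate block). Irf2, an antagonist of Irf1, fell with -0.27 ± 0.0447 in control mice, and the kinase gene Tyk2 with -0.23 ± 0.0584. In cKO mice Irf2 was also lower ipsilaterally in every mouse (30.9 to 35.6 CPM contralaterally, 27.65 to 31.8 CPM ipsilaterally). Tyk2 was lower there in every mouse but H61.

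In the nucleic acid sensing list, 6 of 18 genes were called higher and 1 lower in control mice, and 7 higher and 1 lower in cKO mice. Aim2, the inflammasome sensor of cytosolic DNA, averaged 0.532 ± 0.292 CPM contralaterally and 3.85 ± 0.318 CPM ipsilaterally in control mice, and 0.602 ± 0.274 and 4.26 ± 0.813 CPM in cKO mice, a rise of 2.83 ± 0.33 and 2.82 ± 0.33 on the log2 scale. Tmem173, the gene of STING, rose by 1.67 ± 0.14 and 1.69 ± 0.14. Nod1 fell in cKO mice with -0.32 ± 0.0589. It was also lower ipsilaterally in every control mouse (15.1 to 18.3 CPM contralaterally, 13.2 to 16.2 CPM ipsilaterally). Of 39 further interferon-stimulated genes, 5 were called higher and 1 lower in control mice, and 4 higher and 1 lower in cKO mice. Oasl1, a relative of Oasl2, rose by 1.19 ± 0.14 and 0.98 ± 0.14, and Cmpk2 was the one called lower, with -0.40 ± 0.0510 and -0.46 ± 0.0510.

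Antigen presentation genes outside the members are given beside the same background, 29.9% and 31.3% of all genes called. Of 10 class I antigen processing genes 1 was called higher in control mice and none in cKO mice. The immunoproteasome subunits Psmb8 and Psmb9 had log2 fold changes of 0.20 ± 0.27 and -0.15 ± 0.34 in control mice and -0.01 ± 0.27 and -0.41 ± 0.34 in cKO mice. Among 11 class I-like genes only H2-M3 was called, lower, with -0.21 ± 0.0678 and -0.19 ± 0.0678. None of the 7 MHC class II genes was called, and Cd74, the invariant chain, was at -0.02 ± 0.32 and -0.25 ± 0.32.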

How the data were processed

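Stranded mRNA libraries of lumbar ganglia were read as paired 150 bp reads, per the labels' protocols. The deposited table holds whole-number counts per gene, made by the authors and not normalised. The authors also deposited FPKM values, used only as an alternative. The submitters' processing notes name HISAT2, Picard, mm10 and mm39 without roles; the counting program, annotation and strand setting are not given in the sources used here. Columns were matched to mice by library name; one title shortens H61 to H6.

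Counts were fitted in R 4.3.3 with edgeR 4.0.16 (TMM, filterByExpr with minimum count 10 and minimum total 15, robust quasi-likelihood test, all 20 libraries, 1 mean per group), which left 28564 genes, and p-values were adjusted by Benjamini-Hochberg. The fit was tested on simulated data. Symbols and exon lengths came from GENCODE M21, and 51487 of 78258 identifiers had a symbol, with 98.1% of counts. CPM are TMM-normalised and errors are SD or SE as stated. The SE of a log2 fold change is its size divided by the square root of the F statistic. That fit shares the spread of a gene over all groups and does not pair sides by mouse, so this SE is not an error over the mice of 1 group. Reads carry no molecular identifiers. Same-numbered libraries come from the same mouse, so the numbers pair the samples. The deviations of the 2 libraries of a mouse from their group means correlated across genes with a median of 0.186 (-0.0546 to 0.361), over 0.1 in 7 of 10 mice. The mouse as replicate block was an alternative, as were DESeq2 1.42.0, RLE size factors, other filters, limma 3.58.1 on log2 FPKM (pseudocount 1 or 0.1), the range of mouse numbers, only the libraries compared, and leaving out each mouse.

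Per-library values are given for 12 members (Isg15, Ifit3, Irf1, Irf7, Irf9, Stat2, B2m, H2-K1, H2-D1, Tap1, Nlrc5, Ifitm3) and for the 5 highest and 5 lowest called members per comparison with a mean of at least 1 CPM. From the pathway lists, Ifnar1, Ifnar2, Ifngr1, Ifngr2, Psmb8, Psmb9, Cd74, Socs1, Socs3 and the 3 highest and 3 lowest called per injury comparison are named. One item that this rule also selects is not reported here. The members and all lists were chosen with earlier results of these data known.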

Additional observations from a re-analysis of the deposited data

Results flagged for a closer look

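In 12 of 152 groups of 5 values (38 members in 4 groups) 1 mouse stood apart, its gap to the nearest of the others taking more than 0.71 of the whole range of the group. Chance would give about 1 in 20, or 7.6 groups, if the groups were independent. Members share their libraries, so the groups are not independent, and these counts are set side by side without a test. The contralateral library of H96 was high for Oasl2 (0.874 of the range), Usp18 (0.788) and Mx1 (0.773), and its ipsilateral library for B2m (0.722). The contralateral library of H61 was high for Gbp2 (0.801) and Gbp7 (0.729). The ipsilateral library of H100 was high for Gbp2 (0.854) and Tap2 (0.811), and that of H63 for Ifit2 (0.855). The contralateral library of H99 was low for Tapbp (0.745) and Ifi35 (0.72), and that of H95 for Trim25 (0.726). Of these 11 genes in 7 libraries, Oasl2, Ifi35 and Trim25 were among the members called after injury.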

How the results depend on the processing

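The number of members called after injury in control mice, 10, became 6 with log2 FPKM at a pseudocount of 1 and 6 at 0.1, 2 with only mice H95 to H100, and 5 to 12 when 1 mouse was left out (5 without H63 or H97, 6 without H65, 12 without H96). In cKO mice the 7 calls became 4 with only mice H61 to H65 (3 higher and Bst2 lower), 4 with only mice H95 to H100, and 5 to 9 with 1 mouse left out. Between genotypes on the contralateral side, 1 member (Stat2, lower) was called by DESeq2, 1 without the filter, and 0 to 1 with 1 mouse left out. The median of the interaction, -0.086, became -0.408 with only mice H61 to H65 and 0.166 with only mice H95 to H100. Leaving out 1 mouse gave medians of 0.104 to 0.33 after injury in control mice, -0.028 to 0.195 in cKO mice, -0.105 to 0.17 and -0.15 to -0.037 between genotypes on the contralateral and ipsilateral sides, and -0.182 to 0.04 for the interaction. Splits by mouse number were chosen after seeing the data and leave few mice. The cause of these shifts was not tested, and neither was the part that the smaller number of samples has in them. With the mouse as replicate block 10 and 9 members were called after injury in control and cKO mice, and beside the changes given in the report it changed no other call of a member. No called member changed direction in any alternative run, and the other counts stayed within 1.5 times the main count. The medians of the members otherwise moved by less than 1 SD over mice (0.164 to 0.397), a margin that includes changes of sign. With log2 FPKM at a pseudocount of 1, the median after injury in control mice was 0.059, and 0.14 at 0.1, against 0.201 in the main fit. The ipsilateral median between genotypes was -0.027 and -0.063 with these pseudocounts, against -0.088. The fit on only the libraries compared is not a separate alternative for the interaction, which uses all libraries.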

Other observations

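Other genes of the pathway lists were called in both genotypes and are given here as values, chosen after they were seen. Stat3, which signals for gp130 cytokines, averaged 413 CPM contralaterally and 501 CPM ipsilaterally in control mice (log2 fold change 0.28 ± 0.0407, SE) and rose by 0.46 ± 0.0407 in cKO mice. The kinase gene Jak2 rose by 0.48 ± 0.0444 and 0.55 ± 0.0444, and the phosphatase gene Ptpn2 by 0.41 ± 0.0726 and 0.41 ± 0.0726. The Toll-like receptor adaptors Myd88 and Ticam1 rose by 0.63 ± 0.0559 and 0.49 ± 0.0679 in control mice and 0.57 ± 0.0559 and 0.59 ± 0.0680 in cKO mice. Samhd1, which depletes nucleotides used by viruses, rose by 0.40 ± 0.0661 and 0.32 ± 0.0660, and Eif2ak2, the gene of the kinase PKR, by 0.16 ± 0.0469 and 0.26 ± 0.0470.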
